A study of Carthamus tinctorius with 15 samples.

Results

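In safflower (Carthamus tinctorius), a daisy relative grown for seed oil, 101 of the 33242 genes in the expression table (0.304%) were high in root and flower and low in stem and leaf. They were chosen on the mean of log2(FPKM + 1) over the 3 libraries of each tissue, where FPKM is the read number of a gene scaled by its length and by the library total. The lower of the root and flower means had to exceed the higher of the stem and leaf means by at least 2, a difference called the gap here, and root and flower had to lie within 2 of each other. Since all 12 libraries of root, stem, leaf and flower entered this choice, the gap and the balance of root against flower are described below with no test. The difference between stem and leaf was tested: the choice left its sign free, but it kept both means at least 2 below root and flower, which limits how large the difference can be, most of all in genes of low level. The labels give each library a tissue and a replicate number, and say neither that libraries came from separate plants nor how old the plants were or which flower parts were taken. P-values therefore speak only to the spread among the sequenced libraries, which could be technical. The title of the study concerns oil formation in seeds, and its 3 seed libraries were not used here.

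Roots anchor a plant and take up water and minerals, and flowers carry the organs of reproduction. Both import most of their sugar, whereas leaves and the green stem of a herb carry out photosynthesis. The rows of the table used have no gene names or identifiers, so no function is given to any gene, tissue marker genes were not checked, and a gene is named by its row, with row 1 the first below the header. In bulk tissue, fewer cells of a type and less RNA per cell cannot be told apart.

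Library totals recovered from the values ran from 26183138 to 31500664 reads, and a read here may be a pair of reads. Each gene had at least 210 reads over the 3 root libraries, with a median of 1944, and at least 252 over the 3 flower libraries, with a median of 3015. Over the 3 stem libraries the median was 111 reads, and over the 3 leaf libraries 81. Fewer than 10 reads stood behind the stem level of 17 genes and the leaf level of 21, so their lowest values are imprecise. The library flower 1 stood apart from flower 2 and 3 in most of these genes, and some of the counts and named genes are also given without it. Other named genes moved as well.

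As a group the genes made up 0.781% ± 0.01 (SD, n = 3) of all FPKM in root and 1.28% ± 0.356 in flower, against 0.09% ± 0.00141 in stem and 0.0587% ± 0.000942 in leaf. Their summed level was 6006, 5942 and 6097 FPKM in the root libraries and 13219, 8580 and 8550 in the flower libraries. In stem it was 692.0, 714 and 708 FPKM, and in leaf 468, 464 and 454. The root, stem and leaf sums were even between replicates, and the large SD in flower came from flower 1, as the share was 1.08% in both flower 2 and flower 3. In all 101 genes the 6 root and flower libraries lay above the 6 stem and leaf libraries, an order that the choice nearly fixes and that 9.33% of the 20769 genes tested showed.

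**Figure D1:**
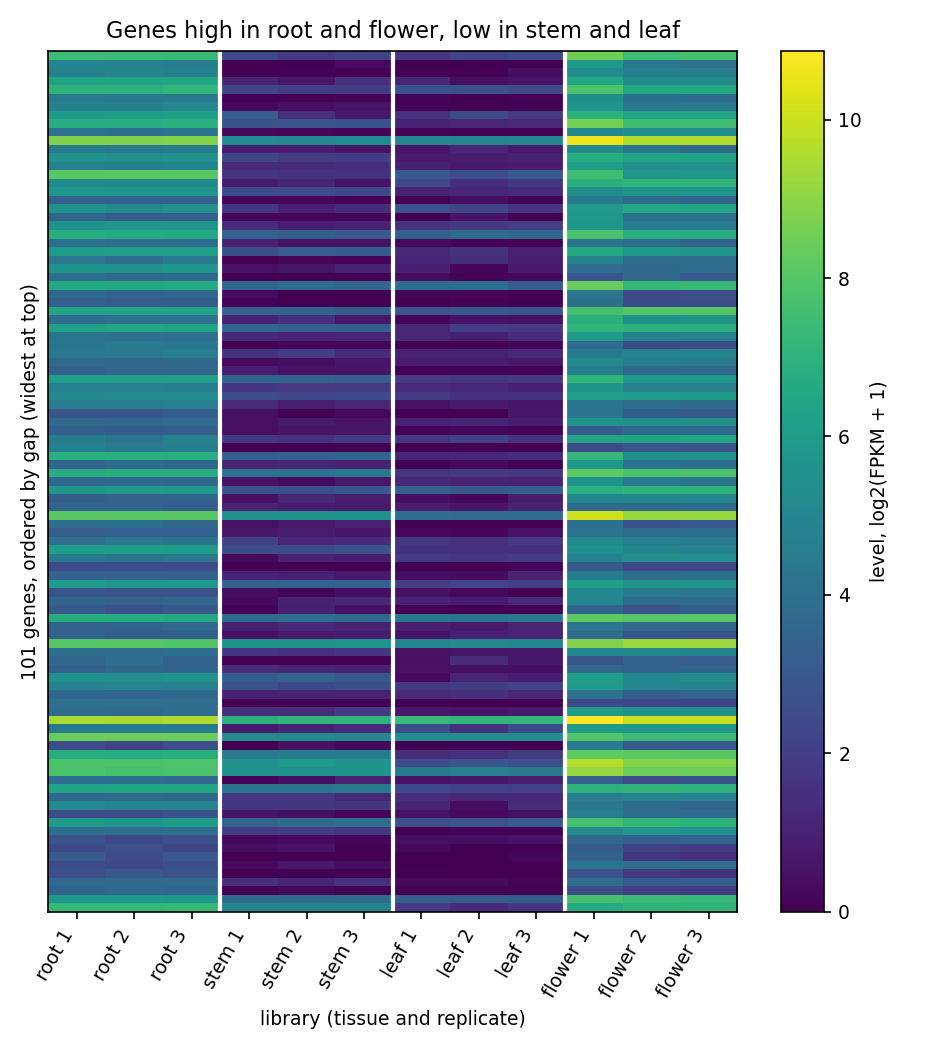
Level of the 101 genes, as log2(FPKM + 1), in each of the 12 libraries (columns, tissue and replicate), with 1 line per gene ordered by the gap. Root and flower columns are bright and stem and leaf columns dark; the brightest lines reach 1871 FPKM in flower 1.

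The gap had a median of 2.60 on the log2(FPKM + 1) scale and ran from 2.01 to 5.30. It was under 2.5 in 44 genes, at least 3 in 27 and at least 4 in 8. Absence from stem and leaf was not the common pattern. In 40 genes both stem and leaf means were under 1 FPKM, while 61 genes kept 1 FPKM or more in stem or leaf, and 16 of them kept 10 or more. In leaf 4 genes had no read in any library and in stem 3 others had none, but no gene was without reads in both tissues. At the upper end, 15 genes reached 100 FPKM in both root and flower, and 29 stayed under 10 FPKM in root or flower.

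The 8 genes with the widest gap had root and flower means from 20.2 to 252 FPKM. Row 8261 (257 bases) had the widest gap, 5.30, with 176, 168 and 164 FPKM in root and 365, 184 and 206 in flower. Its stem libraries were at 4.25, 2.55 and 3.31 FPKM and its leaf libraries at 2.26, 3.58 and 4.21, so stem and leaf overlapped and both were far below. Row 4444 (757 bases) followed the same form, with 134, 130.2 and 148 FPKM in root, 224, 95.5 and 96.8 in flower, 3.77, 3.104 and 2.59 in stem and 5.77, 5.33 and 4.75 in leaf. In this gene the leaf libraries all lay above the stem libraries, and flower 1 stood above the root libraries while flower 2 and 3 stood below them.

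Row 4452 (477 bases) was nearly silent in stem and leaf. It was at 28.9, 26.02 and 23.99 FPKM in root and 55.7, 19.4 and 16.4 in flower, with 3 reads in stem, all in stem 3, and no reads in leaf, which allows a mean of up to 0.067 FPKM by counting error alone. Row 2566 (1788 bases) was similar, at 26.5, 29.7 and 26.7 FPKM in root and 36.6, 24.5 and 25.3 in flower, with 4 reads over the stem libraries and 23 over the leaf libraries. Row 9072 (2019 bases), at 20.5, 20.3 and 19.8 FPKM in root and 40.3, 14.6 and 14.3 in flower, had 7 reads in stem and 8 in leaf. All 3 genes thus had root and flower means of 20.2 to 30.5 FPKM and were read in stem and leaf only a few times.

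Row 3336 (387 bases) leaned to root outside flower 1, with 79.7, 86.5 and 87.4 FPKM in root and 87.2, 34.8 and 36.1 in flower. Its stem libraries were at 1.09, 0.625 and 1.95 FPKM and its leaf libraries at 1.25, 0.328 and 0.493. Row 19699 (660 bases) was at 25.98, 25.7 and 31.9 FPKM in root and 47.7, 18.01 and 19.03 in flower, with 0.1601, 0.366 and 0.545 in stem and 3 reads over the leaf libraries. The last of the 8, row 14673, had the shortest recovered length of all 101 genes (99 bases), with 63.9, 67.5 and 71.99 FPKM in root and 122, 81.9 and 86.8 in flower. Its stem libraries, at 8.89, 1.75 and 0.661 FPKM, were spread over a wider range than its leaf libraries, at 1.96, 4.81 and 2.57. Without flower 1 the gaps of these 8 genes ran from 3.86 to 5.30.

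**Figure D2:**
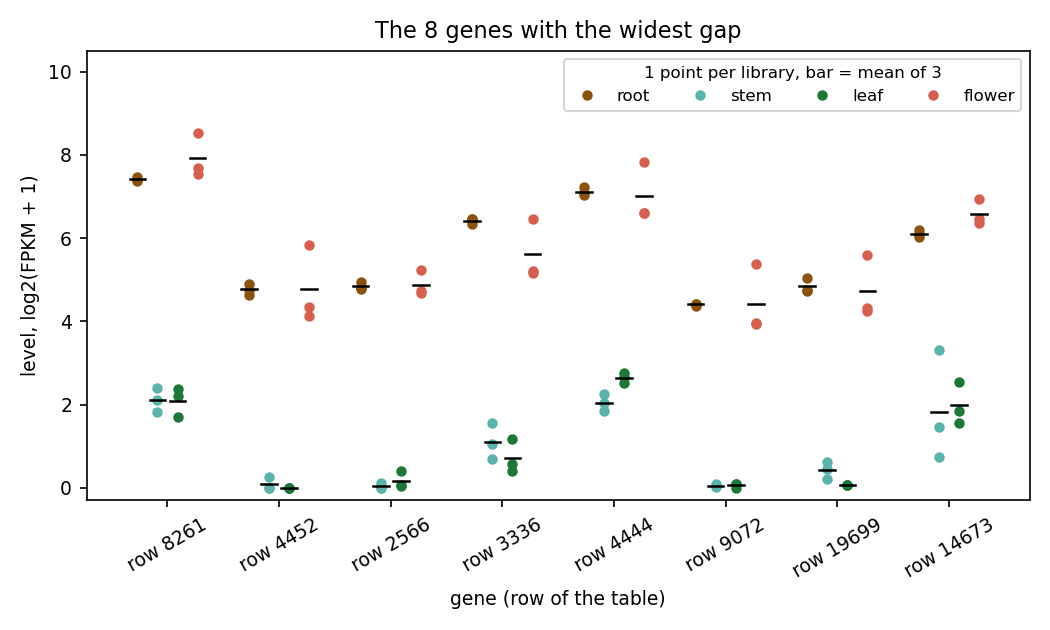
Levels of the 8 genes with the widest gap, as log2(FPKM + 1); each point is a library and each black bar the mean of the 3 libraries of a tissue. Root and flower points lie far above stem and leaf points in all 8, and the upper flower point of each is flower 1.

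The most abundant genes of the group did not have the widest gaps. Row 4408 (474 bases) had the highest levels, 722, 699.8 and 752 FPKM in root and 1871, 1021 and 1032 in flower, and still 127, 140.0 and 139.7 in stem and 158, 148 and 145 in leaf. It alone gave 12% of the summed root level and 12.9% of the summed flower level of the 101 genes. Its lower mean, in root, was 4.82 times its higher mean among stem and leaf.

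Row 4414 (697 bases) was at 436, 437 and 450.2 FPKM in root and 1483, 773 and 757 in flower, against 36.6, 34.6 and 36.7 in stem and 31.8, 29.9 and 31.2 in leaf, a 12.3-fold ratio of root over stem. Row 6257 (1943 bases) was at 268, 270.5 and 268 FPKM in root and 1088, 576 and 565 in flower. It differed from the first pair in its lower tissues, with 44.5, 47.1 and 46.6 FPKM in stem and 14.1, 13.2 and 12.9 in leaf. In row 30883 (844 bases), at 259, 260.4 and 241 FPKM in root and 446, 606 and 602 in flower, flower 1 was the lowest and not the highest flower library. In these 4 genes all flower libraries lay above all root libraries.

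Flower was the higher of the 2 upper tissues in 67 of the 101 genes and root in 34, and the median of root minus flower was -0.49 on the log2(FPKM + 1) scale. Over all genes tested that median was 0.61, on the side of root. Without flower 1 flower was the higher in 60 genes and root in 41, and the median was -0.31; the 7 genes that turned all went from flower to root. Scaling by the median ratio of the libraries raised the number higher in flower to 86 and moved the median of the group to -1.20. Values were divided by 1.23 to 1.25 in root and by 0.71 to 0.76 in flower, which lowers root against flower in every gene. The median over all genes was not taken under this scaling, so the 0.61 is no background for the -1.20. All flower libraries lay above all root libraries in 54 genes, against 27.7% of all genes tested, and all root libraries above all flower libraries in 13, against 58.3%. In the other 34 genes root and flower libraries overlapped. Against flower 2 and 3 alone, which leaves fewer libraries to overlap, these numbers were 56 above, 38 below and 7 overlapping. Since the choice bounds this difference, nothing is read from these counts. Root and flower lay within 1 of each other in 61 genes, flower was higher by 1 or more in 32 and root in 8; without flower 1 these were 62, 23 and 16.

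Genes at both ends of this range differed in how steady they were. Row 13222 (938 bases) leaned most to root, with 26.4, 21.9 and 23.7 FPKM in root and 4.38, 6.28 and 5.804 in flower, and had 1 read over the stem libraries and none in leaf, which allows up to 0.0341 FPKM. Row 12934 (327 bases) was at 47.8, 47.4 and 51.5 FPKM in root and 13.1, 11.7 and 13.3 in flower, even in both tissues. Row 17141 (1287 bases) was at 274, 268 and 275 FPKM in root and 187, 51.4 and 54.7 in flower. Its root minus flower difference of 1.74 became 2.34 without flower 1, beyond the bound of the choice.

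On the flower side, row 4426 (558 bases) was at 13.8, 16.02 and 16.3 FPKM in root and 112, 47.5 and 47.9 in flower. For row 16618 (1211 bases) the values were 22.5, 17.8 and 25.7 FPKM in root and 81.5, 85.5 and 89.2 in flower. The flower libraries of row 16618 were even, and those of row 4426 were not: its root minus flower difference of -1.98 was -1.58 without flower 1, and that of row 16618 went from -1.92 to -1.96. Row 30956 (1181 bases), at 6.12, 5.56 and 5.48 FPKM in root and 32.9, 20.9 and 18.7 in flower, was lower in level. Levels were closest in rows 32371 (1787 bases), 19361 (324 bases) and 31837 (2007 bases) among genes with both means at 5 or more on the log2 scale, with differences of -0.01, -0.03 and -0.04. The even means of row 32371 joined 62.97, 65.6 and 67.03 FPKM in root with 96.5, 55.5 and 52.5 in flower, so root lay between flower 1 and the other flower libraries. The same held for row 19361, with 42.6, 42.2 and 46.96 FPKM in root and 66.4, 32.9 and 40.8 in flower. Without flower 1 root was higher by 0.27, 0.25 and 0.14 in these 3 genes.

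The flower libraries disagreed on most of these genes. Flower 1 was above both flower 2 and flower 3 in 80 genes, below both in 19 and between them in 2. The excess of flower 1 over the mean of flower 2 and 3 had a median of 0.64 on the log2(FPKM + 1) scale and ran from -0.64 to 1.80. Over all genes tested the median was 0.04. It reached 1 in 27 of the 101 genes (26.7%), against 2.01% of all genes tested. The SD between flower libraries was 31.2% of the mean FPKM in the median gene, and 3.32% between flower 2 and 3 alone. Over 3 libraries the figure was 5.97% in root, 22.7% in stem (98 genes with reads) and 29% in leaf (97 genes with reads). The 3.32% rests on 2 libraries, so it is not like for like with the others.

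The 94 genes that met the rule without flower 1 give a view that does not rest on that library. Of these, 92 were among the 101, while 9 of the 101 dropped out. In these 94 genes flower 1 exceeded flower 2 and 3 by a median of 0.58, was above both in 73 (77.7%, against 45.4% of all genes tested) and by 1 or more in 25 (26.6%). In other groups of genes the median was nearer to 0, at 0.02 in the 314 genes at least 2 higher in root than in each other tissue, -0.08 in the 1156 genes of flower chosen likewise, and -0.10 in the 78 genes high in both leaf and flower. These other groups, unlike the 94 genes, were chosen with flower 1 included. The 314 genes also had to be at least 2 lower in flower than in root, which limits how far flower 1 can rise. The medians are therefore not like for like. Differences between them have no test, and their cause was not tested.

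**Figure D3:**
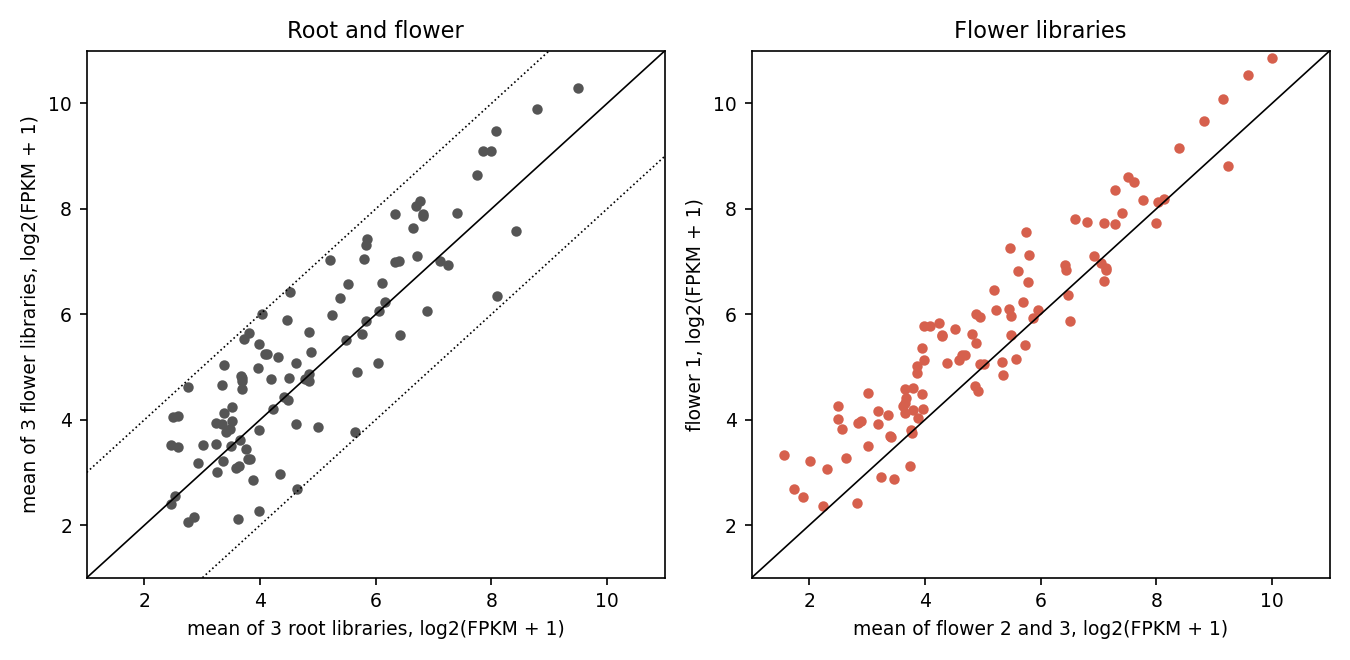
Left, root and flower means of the 101 genes as log2(FPKM + 1), with the line of equal levels and dotted lines at the bound of 2. Right, flower 1 against the mean of flower 2 and 3 with the line of equal levels; 80 of the points have flower 1 above both other flower libraries.

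Where these genes were low, more of them were called higher in stem than in leaf. The choice kept both means well below root and flower, and all genes tested had no such cap. The shares set side by side here are therefore not like for like. By limma, 19 of the 101 genes were higher in stem than in leaf (18.8%), against 13.9% of the 20769 genes tested, and 4 were higher in leaf (3.96%), against 11.4%. A gene was called at a Benjamini-Hochberg adjusted p under 0.05 over all genes tested and a difference of at least 1. The spread was estimated over all 4 tissues together, so each SE also carries the spread of the root and flower libraries, flower 1 among them. The median of stem minus leaf was 0.17 in the group and 0.13 over all genes tested, and the stem mean was the higher in 63 genes (62.4%, near the 58.1% of all genes tested). In all, 23 genes were called, or 22.8% against 25.2%. All stem libraries lay above all leaf libraries in 45 genes (44.6%, against 44.7%), and all leaf libraries above all stem libraries in 18 (17.8%, against 28.8%). Another 78 genes did not pass. Among them were the 40 genes under 1 FPKM in both tissues, which could not reach a difference of 1 on this scale and so could not be called. These 40 had passed the filter through root and flower, and they remain in the 101 behind each share of calls. Such genes were not counted among all genes tested, so nothing is read from the shares of calls. The 19 differences towards stem ran from 1.01 to 3.34 and the 4 towards leaf from 1.05 to 1.30. With median-ratio scaling 16 genes were called in stem (15.8%, against 10.4% of all genes tested) and 5 in leaf (4.95%, against 13.5%).

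Row 32451 (1124 bases) had the largest difference. It was at 29.9, 29.7 and 29.3 FPKM in stem and 2.47, 1.52 and 2.15 in leaf, below 149.9, 148 and 156 in root and 98.8, 133 and 139 in flower. Stem minus leaf was 3.34 (SE 0.129, limma adjusted p = 7.36e-10), and it was also one of the 3 genes nearest to the lower limit of the gap. In row 21236 (1563 bases) stem was at 22.1, 22.9 and 22.4 FPKM and leaf at 1.72, 1.81 and 2.63, and stem minus leaf was 2.95 (SE 0.09, limma adjusted p = 1.05e-10). Row 4435 (477 bases) had 42.9, 55.4 and 48.1 FPKM in stem and 4.88, 6.26 and 5.34 in leaf, with stem higher by 2.94 (SE 0.194, limma adjusted p = 6.9e-08). These 3 genes had an ordered level, lowest in leaf, then stem, then both upper tissues, with no overlap between leaf and stem libraries.

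The 4 genes higher in leaf had low levels in both tissues. Row 17141 was at 7.18, 5.13 and 7.47 FPKM in leaf and 2.22, 1.91 and 2.03 in stem, with stem minus leaf at -1.30 (SE 0.374, limma adjusted p = 0.00879). Row 16292 (570 bases) had 5.05, 2.005 and 4.47 FPKM in leaf and 0.742, 1.21 and 1.55 in stem, or -1.11 for stem minus leaf (SE 0.221, limma adjusted p = 0.000813). It fell under the size of 1 without stem 1, leaf 1 or leaf 3, at -0.96, -0.92 and -0.99. Row 3383 (660 bases) was at 2.65, 2.405 and 2.701 FPKM in leaf and 0.213, 1.099 and 0.843 in stem, or -1.10 for stem minus leaf (SE 0.192, limma adjusted p = 0.000305), and -0.865 without stem 1. In all 3 the leaf libraries lay above the stem libraries. The limma adjusted p of some named calls depended on flower 1. Without that library it fell to 9.74e-07 in row 17141, 4.83e-10 in row 4435, 0.000176 in row 3383 and 2.08e-10 in row 32451. In rows 16292 and 21236 it rose, to 0.00142 and 4.17e-10. Leaving out root 1 instead also raised the limma adjusted p of these rows, to 0.00156 and 1.16e-09. Their rise was thus not particular to flower 1.

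**Figure D4:**
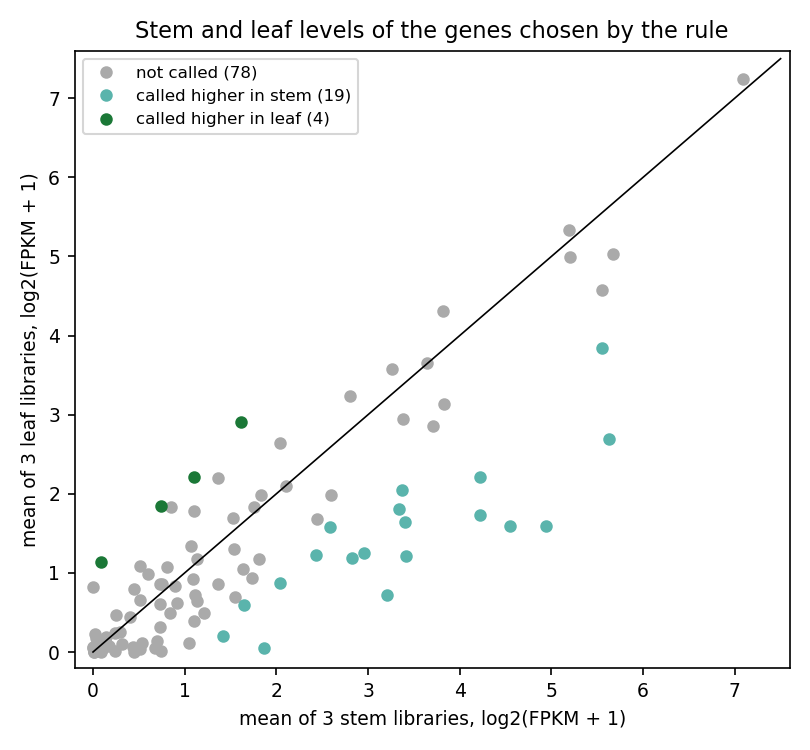
Stem mean against leaf mean of the 101 genes as log2(FPKM + 1), with the line of equal levels; colours mark the 19 genes called higher in stem and the 4 called higher in leaf by limma. The called genes towards stem lie up to 3.34 from the line, those towards leaf up to 1.30.

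The genes were not spread evenly over the table. Another gene of the group lay within 10 rows of 26 of the 101 genes, and 1.52% of the 1715 rows that close to a member were members, against 0.304% of all rows. The densest stretch of 50 rows held 11 of the 101 genes, between row 4408 and row 4455, and any stretch outside it held at most 4. These 11 are among the 26 above, so the uneven spread rests in part on this stretch. No source used here states what sets the order of the rows, and the stretch was picked after its values were seen. Of the 22 rows tested in it, the 11 members have root and flower above stem and leaf by the rule. The 11 others also had both root and flower means above both stem and leaf means, an order found in 15.3% of all genes tested; since the stretch was picked for its members, nothing is read from this count. Of these 11, 3 had a gap of at least 2 with root and flower further apart, and 4 had a gap of 1 to 2.

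The stretch held much of the group's expression. Its 11 genes gave 33.8% of the summed root level and 39.8% of the summed flower level of the 101 genes, and included rows 4408 and 4414. Row 4437 (981 bases) was at 109.6, 107 and 118 FPKM in root and 386, 179 and 183 in flower, against 5.96, 6.199 and 6.04 in stem and 1.09, 1.26 and 1.49 in leaf. Row 4421 (1287 bases), next to row 4420 (474 bases), was at 218, 209 and 219 FPKM in root and 571, 329 and 339 in flower, and kept 44.8, 44.8 and 48 in stem and 22.3, 24.4 and 21.9 in leaf. At its neighbour, row 4420, the values were 98.2, 98.1 and 102 FPKM in root, 325, 152 and 159 in flower, 10.6, 13.3 and 10.7 in stem and 13.7, 14.5 and 7.72 in leaf. Both rows of this pair were thus higher in flower than in root, with gaps of 2.997 and 2.21 for rows 4420 and 4421.

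Rows 4418 (927 bases) and 4455 (976 bases) had lower levels. Row 4418 was at 22.9, 23.6 and 24.4 FPKM in root and 17.2, 13.6 and 12.1 in flower, and row 4455 at 9.06, 9.23 and 9.16 and 20.2, 12.7 and 10.8. Flower 1 exceeded the mean of flower 2 and 3 in all 11 genes, by 0.39 to 1.59 with a median of 0.95, and flower was higher than root in 8 of them. Stem minus leaf ran from -0.60 to 2.94. Recovered lengths recurred: 6 rows of the stretch were 477 bases long and 3 were 474 bases, the commonest lengths within it. No source used here states how reads were assigned among near-identical genes, so if these rows are copies of a gene, their separate levels are uncertain.

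**Figure D5:**
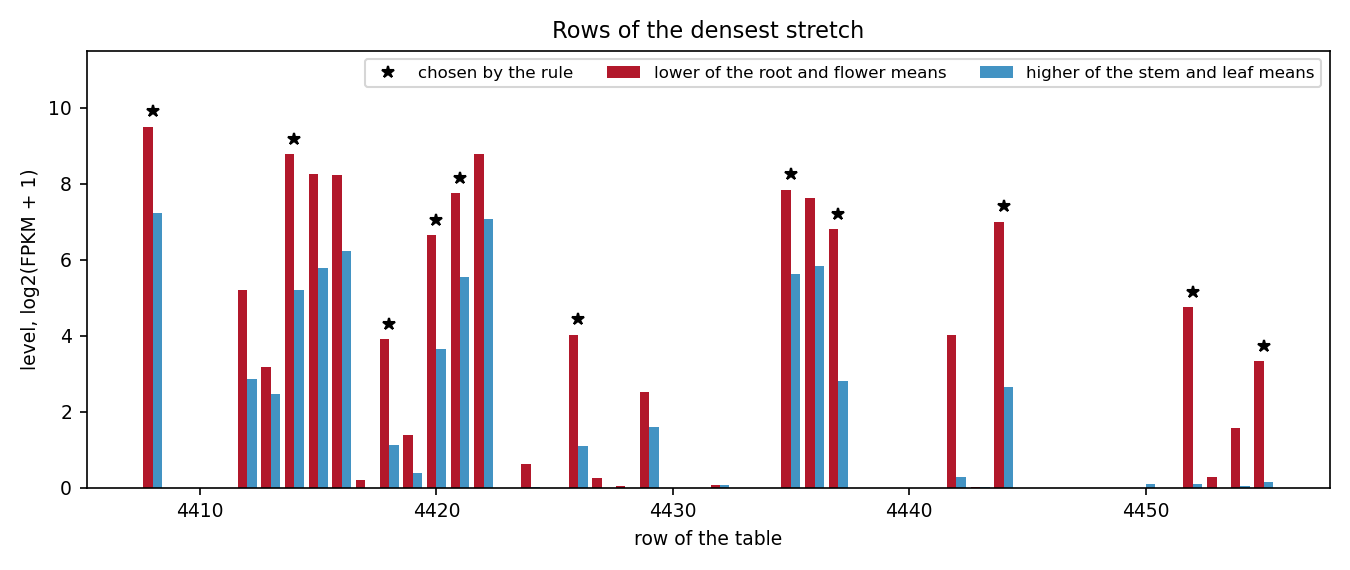
Rows 4408 to 4455 of the table with the lower of the root and flower means (red bars) and the higher of the stem and leaf means (blue bars) as log2(FPKM + 1), stars marking the 11 genes chosen by the rule. In all 22 rows tested the red bar is the taller; 14 of the 48 rows were at 0 in all libraries.

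Neighbouring rows were found in 3 runs. The longest was rows 19698 (570 bases), 19699 and 19700 (1314 bases). Row 19698 was at 18.1, 21.5 and 18.5 FPKM in root and 13.1, 4.78 and 5.01 in flower, and row 19700 at 10.2, 8.81 and 8.97 and 14.3, 6.45 and 5.94. In each of the 3 the root level lay between flower 1 and the other flower libraries or above them all, and stem and leaf stayed at or under 1.04 FPKM in every library. Row 3335 (337 bases), next to row 3336, was at 10.6, 8.16 and 8.85 FPKM in root and 54.2, 16.4 and 15.8 in flower. These neighbours leaned in opposite directions, by -1.32 in row 3335 and 0.81 in row 3336 for root minus flower, and by -0.75 and 1.23 without flower 1. The third run was rows 4420 and 4421.

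The median recovered length was 1182 bases, with a range from 99 to 3336, against 1350 over all genes tested, and 16.8% of the group was under 500 bases, against 15.4%. By the same rule 281 genes were high in stem and leaf, 279 in root and stem, 78 in leaf and flower, and 8 each in root and leaf and in stem and flower. Root and flower, with 101, gave the third largest of the 6 sets. These counts have no test.

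The limit of the gap fell within a dense range of values. Just inside were rows 13470 (1625 bases) and 32451, both at 2.01, and row 24426 (815 bases) at 2.02. Row 13470 was at 56.5, 57.5 and 54.97 FPKM in root, 209.8, 158 and 152 in flower, 12.8, 13.7 and 13.3 in stem and 8.08, 7.97 and 7.42 in leaf. Row 24426, a gene of low level, was at 10.4, 12.2 and 11.1 FPKM in root and 4.798, 2.97 and 2.495 in flower, and its gap was 1.80 without flower 1. Just outside were rows 23009 and 26541, both at 1.999, and row 4416 of the dense stretch at 1.99. Row 4416 (474 bases) had means of 298 ± 17.3 FPKM (SD, n = 3) in root, 738 ± 44 in flower and 74.1 ± 2.76 in stem.

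The gap was also read in libraries that a choice had not used, with no test. Choosing genes from 2 replicates of each tissue and reading the gap in the third gave 93 genes when replicate 1 was held out, 107 for replicate 2 and 109 for replicate 3. In the libraries held out, the gap was above 0 in all of them, and at least 1 in 92, 107 and 108. It was at least 2 in 85, 81 and 85, with medians of 2.63, 2.40 and 2.42. The whole rule was met in the held-out libraries by 76, 79 and 84 genes. Since replicates may not come from separate plants, these counts show only how alike the sequenced libraries were. The share over all genes was not counted.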

How the data were processed

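The authors deposited FPKM values of 12 libraries, with 33242 rows and 1 column per library named by its title. Per the submitters' processing notes, HISAT2, HTSeq, fastp and R 3.2.0 were used, with no role stated. The build, the annotation and the strandedness are not named in the labels or the file. FPKM is relative to the library, so very abundant genes lower all others. Whole reads, totals and lengths were recovered from FPKM steps, within 0.01 reads, for 100% of the 26625 rows above 0. The length of a row is the smallest that gives whole reads, and can be too short where reads are few. Limits for a count of 0 use 3 reads over the 3 libraries of a tissue. Since reads are not independent molecules, they cover counting error only.

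Tested genes reached 1 FPKM in 3 or more of the 12 libraries (20769, among them all 101 members, which the rule nearly ensures). Stem was compared with leaf by limma 3.58.1 in R 4.3.3 on log2(FPKM + 1), with a mean per tissue, a mean-variance trend, 8 residual degrees of freedom and Benjamini-Hochberg adjustment. This scale understates changes of low genes. The script was tested on simulated data. The members, lists and rules were chosen with earlier results of these data known. Named genes were the 8 of widest gap, the 4 of highest level, the 3 at each end and the 3 at the middle of root minus flower, the 3 at each end of the stem and leaf calls, runs of neighbouring rows and those nearest the limits. The other rows of the dense stretch were chosen after their values were seen. Alternatives were other pseudocounts, scaling, filters, thresholds and libraries left out; edgeR on recovered reads was planned and not run, since the deposited unit is FPKM.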

Additional observations from a re-analysis of the deposited data

How the results depend on the processing

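The number of genes chosen depended on the thresholds and the pseudocount. It was 199 with a pseudocount of 0.1, 186 with a gap of at least 1.5, 27 with a gap of at least 3 and 61 with root and flower within 1. With libraries left out it ran from 93 to 109; leaving out replicate 1, 2 or 3 of all 4 tissues at once was added after seeing the data. Median-ratio scaling gave 96 genes, of which 78 were shared with the 101. The number higher in flower ran from 60 to 75 with libraries left out, and the median of root minus flower from -0.61 to -0.27, against -0.49. Without flower 1, 7 of the 101 genes turned from flower to root, among them rows 32371, 19361 and 31837.

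With a pseudocount of 0.1, 33 of the 101 genes were called higher in stem and 10 in leaf, against 19 and 4. With libraries left out these ran from 18 to 20 and from 3 to 5, and the counts over all genes from 2883 to 2915 in stem and from 2357 to 2379 in leaf. Of the 6 named calls, from 4 to 6 remained. None of these 6 changed sign under the alternatives run. With median-ratio scaling the share of all calls higher in stem went from 55% to 43.4%, turning the balance of all calls from stem to leaf, and that of the 101 genes from 82.6% to 76.2%.

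No pairing by replicate number was seen in the values, which cannot show whether same-numbered libraries came from the same plant. Correlations of same-numbered libraries' deviations from their tissue means ran from -0.036 to 0.025. A fit with the replicate block called 19 genes higher in stem and 4 in leaf, and 2885 and 2358 over all genes. The edgeR test planned on recovered reads was not run. Depth limits the low side: 17 genes had fewer than 10 reads over the stem libraries and 21 over the leaf libraries.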
